A study of Homo sapiens with 12 samples.

Results

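Melanosome transport depends on a small set of genes, and 7 of them are described here: SYTL2, RAB27A, MYO5A, MLPH, MREG, RAB38 and RAB32. They were taken from a list of names chosen with results of the same arrays in view, and they are 7 of the 18132 genes that have a probe set of their own. SYTL2 was selected on its difference between CANT1 and wild type OCM1 cells on replicates 2 and 3, so its values in that comparison are a description. Each gene is represented by the brightest of its own probe sets, and 22 probe sets name these 7 genes alone. All 7 genes passed the filter on dim genes, 6 of them with a signal of at least 100 on 12 of 12 arrays and SYTL2 on 10 of 12. The arrays come from OCM1 and MUM2B, cell lines that the labels call uveal melanoma. OCM1 cells overexpressing the long noncoding RNA CANT1, OCM1 wild type cells, MUM2B cells overexpressing CANT1 and MUM2B wild type cells were each hybridised to 3 Affymetrix PrimeView arrays. The growth label of the replicate 1 arrays names puromycin selection of the overexpressing cells, and that of replicates 2 and 3 names serum-containing medium. The replicate 1 controls are labelled wild type, and those of replicates 2 and 3 are labelled control. All are called wild type here, although the label of replicates 2 and 3 does not say what kind of control they are. No vector is named, so CANT1, vector and selection cannot be told apart. The labels do not say whether the overexpressing cells are 1 clone or whether each replicate was cultured separately. Each p-value therefore reflects variation among arrays alone, and that variation may be technical.

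Melanosomes, the pigment organelles of melanocytes and of many melanoma cells, are carried along microtubules and then handed to the actin network at the cell edge. There the small GTPase RAB27A on the melanosome recruits melanophilin (MLPH), which binds the motor myosin Va (MYO5A), and the complex holds the organelle near the plasma membrane. SYTL2, a synaptotagmin-like protein, is another RAB27A effector and links vesicles to the plasma membrane. RAB38 and the related RAB32 act earlier, in delivering melanogenic enzymes to the maturing melanosome, and melanoregulin (MREG) has been linked in mice to movement of melanosomes toward the cell centre and to their transfer. On the human assembly GRCh38.p14, the genes lie on chromosomes 11 (SYTL2, 85694229 to 85854870, and RAB38, 87803715 to 88175443), 15 (RAB27A, 55202966 to 55319123, and MYO5A, 52307283 to 52529050), 2 (MLPH, 237486410 to 237555322, and MREG, 215939308 to 216034096) and 6 (RAB32, 146543833 to 146554953).

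Promoter windows from 250 bases before to 50 bases after a start are shown for the 3 genes of the RAB27A, MLPH and MYO5A complex, because RAB27A and MYO5A differed together between the lines and MLPH did not follow them. The sequences are from RefSeq on GRCh38.p14, 5′ to 3′ on the gene's strand, and capitals mark a match to a searched motif. The windows are chr15:55319074-55319373 on the minus strand for RAB27A, chr15:52529001-52529300 on the minus strand for MYO5A and chr2:237487001-237487300 on the plus strand for MLPH.
RAB27A: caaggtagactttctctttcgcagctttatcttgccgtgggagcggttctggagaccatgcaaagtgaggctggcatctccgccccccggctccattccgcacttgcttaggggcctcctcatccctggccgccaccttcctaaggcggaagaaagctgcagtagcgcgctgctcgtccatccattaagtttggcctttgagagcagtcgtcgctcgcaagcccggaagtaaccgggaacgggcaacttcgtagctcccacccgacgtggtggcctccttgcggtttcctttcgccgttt
MYO5A: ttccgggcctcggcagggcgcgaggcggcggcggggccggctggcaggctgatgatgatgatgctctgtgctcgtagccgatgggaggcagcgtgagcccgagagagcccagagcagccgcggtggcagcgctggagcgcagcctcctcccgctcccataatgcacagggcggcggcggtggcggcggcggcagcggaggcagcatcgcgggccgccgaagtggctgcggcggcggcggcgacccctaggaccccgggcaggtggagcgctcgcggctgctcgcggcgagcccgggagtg
MLPH: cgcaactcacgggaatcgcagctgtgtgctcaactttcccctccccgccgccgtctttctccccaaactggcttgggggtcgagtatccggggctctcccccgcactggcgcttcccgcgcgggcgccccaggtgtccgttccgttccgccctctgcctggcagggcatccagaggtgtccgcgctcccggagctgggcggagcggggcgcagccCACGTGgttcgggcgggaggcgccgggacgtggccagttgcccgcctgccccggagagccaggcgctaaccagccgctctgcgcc
The RefSeq table held 12 windows of 5 of the genes, which were RAB27A (5 windows), MREG (3), MLPH (2), MYO5A (1) and RAB32 (1). Each was searched on both strands for CATGTG and CACGTG, core sequences of the E-box type that the melanocyte factor MITF binds, and for TGANTCA, the core bound by AP-1 factors. CACGTG was found in 1 of the 12 windows, at -35 from the MLPH start shown above, and in 7.26% of all 35116 windows. TGANTCA was found in 2 windows, both of other RAB27A starts, at +4 and at -197, and in 7.71% of all windows. CATGTG was found in 0 of the 12 and in 11.1% of all windows. The 3 motifs do not overlap in these windows, and a match is a description of the letters only.

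The replicate 1 arrays often went against replicates 2 and 3 in the CANT1 comparisons, and OCM1 wild type replicate 1 stood apart from its line. Its mean correlation over genes with the other OCM1 arrays was 0.897, whereas the other 11 arrays had 0.955 to 0.980 with the arrays of their line. The log2 ratio of 3′ to 5′ ACTB signal, a measure of RNA integrity, was 2.15 to 2.51 on the 4 replicate 1 arrays and 0.473 to 0.911 on the other 8, and its part in the results was not tested. Of 2815 genes called in OCM1 on replicates 2 and 3, 1106 had the same sign on replicate 1, and of 3028 called in MUM2B, 378 did. The summed signal of 10 pigment cell markers was 82041, 79281 and 82035 in OCM1 CANT1 and 14342, 80414 and 78072 in OCM1 wild type, in replicate order. Single markers went both ways between these groups on replicates 2 and 3, with 5 of 9 tested above 0. TYRP1 had a log2 difference of -2.67 and SLC45A2 of -0.51, whereas PMEL had 0.46 and S100B 0.56. In MUM2B the sum was 825 to 962 in CANT1 cells and 821 to 1197 in wild type cells, with a signal of at least 100 for 4 to 6 of the 10, against 9 or 10 in OCM1. In this sense MUM2B had low pigment cell markers. Sums of some other markers also differed between the lines, mainly through single genes. The sum of 5 fibroblast markers was 1522 to 1717 in OCM1 CANT1 cells and 268 to 371 in MUM2B. In OCM1 wild type cells it was 372, 1665 and 1558 on replicates 1, 2 and 3. A signal of 100 was reached by 1 or 2 of the 5 in OCM1 and by 0 or 1 in MUM2B. Between the wild type lines over all arrays, LUM had a log2 difference of 3.26 and PDGFRB of 0.030. COL1A1, COL1A2 and DCN stayed below 100 on every array. The sum of 5 endothelial markers was 347 to 505 in OCM1 and 2693 to 4936 in MUM2B. Of these, 3 were tested between the wild type lines over all arrays, with log2 differences from -4.95 to 0.17. Of the 3, 1 was called lower in OCM1, where 13.9% of all genes were. A signal of 100 was reached by 1 or 2 of the 5 in OCM1 and by 2 or 3 in MUM2B. Entry into the test may therefore rest on MUM2B, and nothing is read from the call. Sums of 5 epithelial markers were 546 to 965 in OCM1 and 735 to 1694 in MUM2B, and those of 5 immune markers 245 to 282 and 213 to 285. The part of these markers in the differences between the lines was not tested. Because the arrays measure bulk RNA, fewer cells of a type and less RNA per cell cannot be told apart.

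Levels are given as log2 of the scaled signal plus 32, which cannot be below 5 and which understates the change of dim genes. Differences are log2 values, and ± is the standard error unless SD is written.

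**Figure D1:**
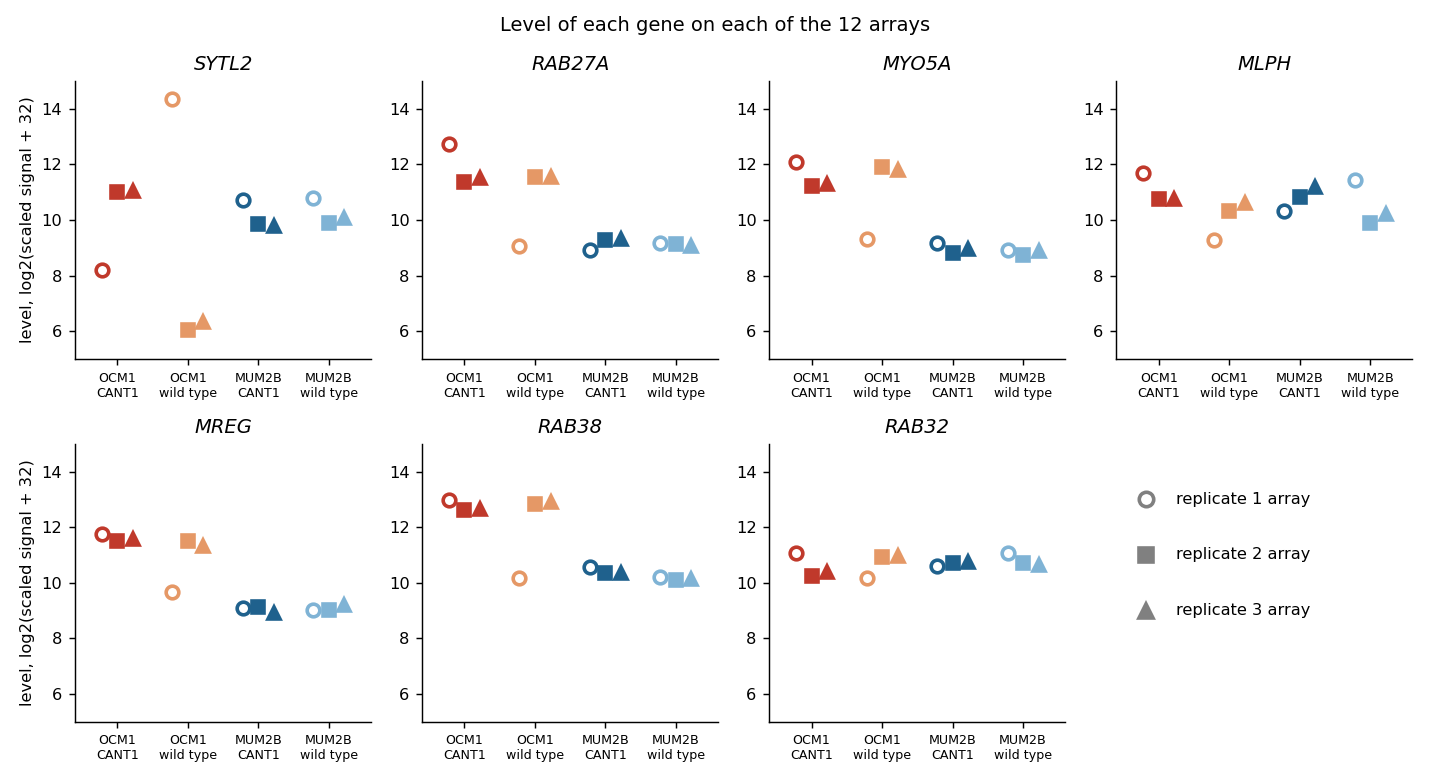
Level, as log2(scaled signal + 32), of each of the 7 genes on each of the 12 arrays, by group, with replicate 1 as open circles and replicates 2 and 3 as filled squares and triangles. SYTL2 spans 6.05 to 14.37 in OCM1 wild type cells, and OCM1 wild type replicate 1 lies nearest the MUM2B arrays for RAB27A, MYO5A, MREG and RAB38.

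SYTL2, the effector that links RAB27A vesicles to the plasma membrane, had the widest spread of the 7 genes in OCM1. Its levels on replicates 1, 2 and 3 were 8.20, 11.01 and 11.03 in OCM1 CANT1 cells and 14.37, 6.05 and 6.32 in OCM1 wild type cells. In MUM2B they were 10.71, 9.87 and 9.78 in CANT1 cells and 10.80, 9.89 and 10.06 in wild type cells. Both OCM1 CANT1 arrays of replicates 2 and 3 lay above both wild type arrays, whose scaled signals of 34.5 and 48.0 were dim, whereas on replicate 1 the wild type array was the brightest of all 12, at a signal of 21072. The OCM1 groups therefore overlapped over 12 arrays. The difference was 4.83 ± 0.11 on replicates 2 and 3, or 28.5-fold on the log2(signal + 32) scale, -6.17 on replicate 1, 1.17 ± 1.73 over all arrays and 4.02 ± 0.77 without OCM1 wild type replicate 1. In MUM2B the groups differed by -0.13 ± 1.73 over all arrays and by -0.15 ± 0.11 on replicates 2 and 3, and did not pass (limma adjusted p = 1.00 and 0.351). The order of group means on replicates 2 and 3 was OCM1 CANT1 (11.02), MUM2B wild type (9.98), MUM2B CANT1 (9.82) and OCM1 wild type (6.19). The MUM2B pair, neighbours in that order, did not differ beyond the test's threshold.

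RAB27A, the GTPase that recruits MLPH and SYTL2, was higher on most OCM1 arrays than on the MUM2B arrays. Its levels on replicates 1, 2 and 3 were 12.72, 11.35 and 11.52 in OCM1 CANT1 cells and 9.08, 11.56 and 11.54 in OCM1 wild type cells. In MUM2B they were 8.92, 9.28 and 9.33 in CANT1 cells and 9.17, 9.15 and 9.08 in wild type cells. The 3 OCM1 CANT1 arrays and 2 of the 3 OCM1 wild type arrays lay above every MUM2B array, and OCM1 wild type replicate 1 lay among them. The mean levels were 11.86 ± 0.75 (SD, n = 3) in OCM1 CANT1 and 10.73 ± 1.43 (SD, n = 3) in OCM1 wild type cells, and 9.18 ± 0.23 (SD, n = 3) and 9.13 ± 0.044 (SD, n = 3) in MUM2B CANT1 and wild type cells. Between CANT1 and wild type OCM1 cells the difference was 1.14 ± 0.59 over all arrays, -0.11 ± 0.095 on replicates 2 and 3, 3.64 on replicate 1, and 0.21 ± 0.33 without OCM1 wild type replicate 1. In MUM2B it was 0.047 ± 0.59 over all arrays and 0.20 ± 0.095 on replicates 2 and 3 (limma adjusted p = 1.00 and 0.159), and did not pass.

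MYO5A, the actin motor of the complex, followed the same order of lines. Its levels were 12.09, 11.23 and 11.28 in OCM1 CANT1 cells and 9.31, 11.92 and 11.78 in OCM1 wild type cells on replicates 1, 2 and 3. In MUM2B they were 9.18, 8.82 and 8.95 in CANT1 cells and 8.91, 8.72 and 8.89 in wild type cells. All 6 OCM1 arrays lay above all 6 MUM2B arrays, the nearest being OCM1 wild type replicate 1. The share of all genes separated in this way was not computed. Between the wild type lines, 5366 of 12711 genes had an unadjusted limma p under 0.05. Both OCM1 CANT1 arrays of replicates 2 and 3 lay below both OCM1 wild type arrays, with a difference of -0.59 ± 0.10, while on replicate 1 it was 2.77. Over all arrays it was 0.53 ± 0.57 and without OCM1 wild type replicate 1 it was -0.45 ± 0.17. In MUM2B the groups overlapped in both sets, with 0.14 ± 0.57 over all arrays and 0.076 ± 0.10 on replicates 2 and 3 (limma adjusted p = 1.00 and 0.640).

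MLPH, the adaptor between RAB27A and MYO5A, was the one member called in MUM2B. Its levels on replicates 1, 2 and 3 were 10.33, 10.82 and 11.20 in MUM2B CANT1 cells and 11.44, 9.89 and 10.20 in MUM2B wild type cells. Both CANT1 arrays of replicates 2 and 3 lay above both wild type arrays of those replicates, and on replicate 1 the CANT1 array lay below the wild type one. MLPH rose by 0.96 ± 0.15 on replicates 2 and 3, or 1.95-fold (limma adjusted p = 0.00149), against -1.11 on replicate 1. Over all arrays it was 0.27 ± 0.48 and did not pass (limma adjusted p = 1.00). In OCM1 the levels were 11.68, 10.77 and 10.77 in CANT1 cells and 9.28, 10.34 and 10.62 in wild type cells, so that all 3 CANT1 arrays lay above all 3 wild type arrays. MREG was the other member with this separation in OCM1, and the share of all genes with it was not computed. The MLPH difference in OCM1 was 1.00 ± 0.48 over all arrays, 0.29 ± 0.15 on replicates 2 and 3, 2.40 on replicate 1 and 0.41 ± 0.42 without OCM1 wild type replicate 1.

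MREG, the regulator of melanosome positioning, had levels of 11.75, 11.50 and 11.58 in OCM1 CANT1 cells and 9.67, 11.49 and 11.33 in OCM1 wild type cells. In MUM2B the levels were 9.09, 9.13 and 8.92 in CANT1 cells and 9.02, 9.02 and 9.18 in wild type cells, so MREG was higher on all 6 OCM1 arrays than on all 6 MUM2B arrays. Within OCM1 all 3 CANT1 arrays lay above all 3 wild type arrays. The share of all genes with either separation was not computed. The CANT1 difference in OCM1 was 0.78 ± 0.36 over all arrays, 0.13 ± 0.11 on replicates 2 and 3, 2.08 on replicate 1 and 0.18 ± 0.13 without OCM1 wild type replicate 1. In MUM2B it was -0.027 ± 0.36 and -0.078 ± 0.11 (limma adjusted p = 1.00 and 0.661). The MUM2B groups overlapped.

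RAB38, a GTPase of melanosome enzyme delivery, had levels of 12.97, 12.62 and 12.65 in OCM1 CANT1 cells and 10.19, 12.84 and 12.89 in OCM1 wild type cells. In MUM2B the levels were 10.55, 10.33 and 10.36 in CANT1 cells and 10.20, 10.10 and 10.15 in wild type cells. The 3 MUM2B CANT1 arrays lay above the 3 wild type arrays, by 0.35 on replicate 1 and 0.23 ± 0.087 on replicates 2 and 3, and this was the only member whose groups did not overlap over 12 arrays in MUM2B. The share of all genes without such overlap was not computed. RAB38 did not pass in MUM2B on replicates 2 and 3 (limma adjusted p = 0.0826) or over all arrays (0.27 ± 0.55, limma adjusted p = 1.00). Nor did it pass without OCM1 wild type replicate 1 (0.27 ± 0.089, limma adjusted p = 0.974). Among 20 alternatives for replicates 2 and 3 it was called in 2. In OCM1 the difference was -0.23 ± 0.087 on replicates 2 and 3, 2.78 on replicate 1, 0.77 ± 0.55 over all arrays and -0.19 ± 0.10 without OCM1 wild type replicate 1.

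RAB32, the other GTPase of enzyme delivery, had the narrowest range of the 7 genes. It ran from 10.26 to 11.07 in OCM1 CANT1, 10.18 to 10.97 in OCM1 wild type, 10.61 to 10.76 in MUM2B CANT1 and 10.64 to 11.06 in MUM2B wild type cells, and the 4 groups overlapped. Both OCM1 CANT1 arrays of replicates 2 and 3 lay below the wild type ones (-0.63 ± 0.092), whereas on replicate 1 the difference was 0.89. Over all arrays it was -0.13 ± 0.26, and -0.49 ± 0.19 without OCM1 wild type replicate 1. In MUM2B it was -0.11 ± 0.26 over all arrays and 0.062 ± 0.092 on replicates 2 and 3 (limma adjusted p = 1.00 and 0.680).

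**Figure D2:**
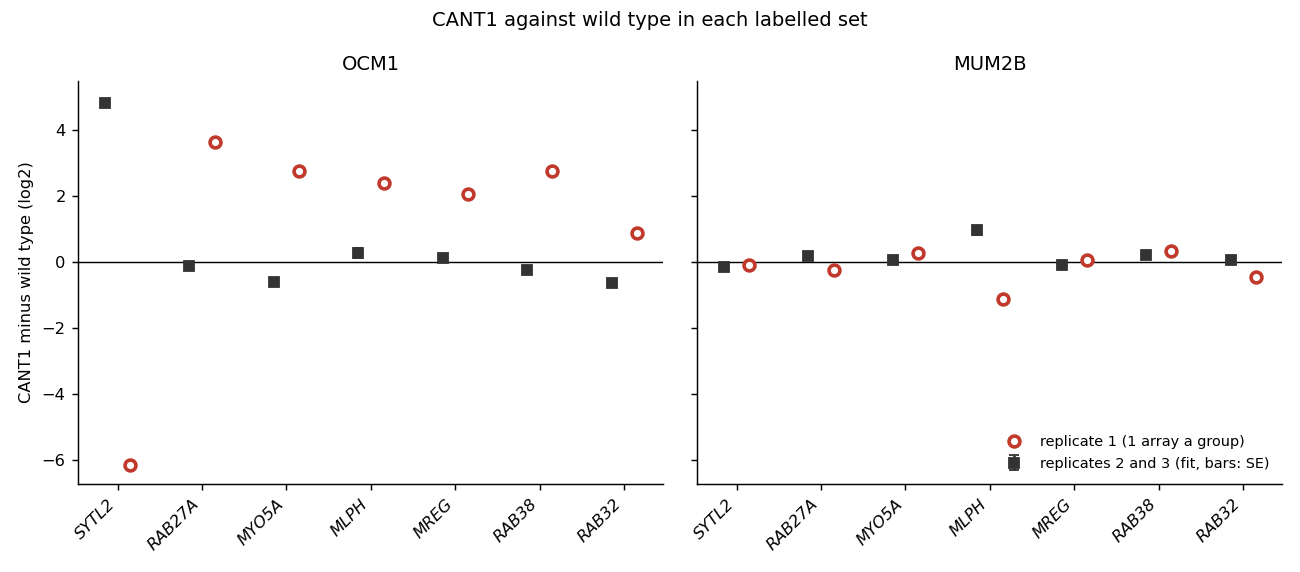
CANT1 minus wild type difference in log2 level of each gene in OCM1 (left) and MUM2B (right), as squares for the fit on replicates 2 and 3 (bars, standard error) and open circles for replicate 1. In OCM1 SYTL2 lies at 4.83 on replicates 2 and 3 and at -6.17 on replicate 1, and in MUM2B MLPH lies at 0.96 and -1.11.

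Over the 7 genes, the CANT1 differences in OCM1 were above 0 for 6 genes over all arrays, with a median of 0.78 against 0.0049 over the 12711 genes tested. They were above 0 for 3 genes on replicates 2 and 3, with a median of -0.11 against 0.038 over 12101 genes. Over all genes, limma called 0.0944% higher and 0.00787% lower over all arrays, and 13.7% higher and 9.6% lower on replicates 2 and 3, and since SYTL2 was selected in this comparison nothing is read from them. In MUM2B, 0 of the 7 genes were called over all arrays by limma, where 0% of genes were called higher and 0% lower, with 219 genes at an unadjusted p under 0.05 and 0 of the 7 among them. With replicates 2 and 3 alone, 1 of 7 (MLPH) was called higher and 0 lower, against 14.4% of genes called higher and 10.7% lower. The median MUM2B difference of the 7 genes was 0.047 over all arrays and 0.076 on replicates 2 and 3, against -0.0064 and 0.0044 over all genes. Without OCM1 wild type replicate 1 the MUM2B differences were the same as over all arrays, with smaller standard errors. These were 0.67 for SYTL2, 0.28 for RAB27A, 0.15 for MYO5A, 0.36 for MLPH, 0.11 for MREG, 0.089 for RAB38 and 0.16 for RAB32. No member passed there (limma adjusted p = 0.974 for RAB38 and 0.998 for the others). Whether the CANT1 difference of a gene differs between the lines was not tested.

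Other probe sets of the genes gave the same signs in OCM1 on replicates 2 and 3 for SYTL2 (1.40 and 4.83), MYO5A (-1.03 and -0.59), RAB38 (3 of 3 below 0, from -0.24 to -0.23) and MLPH (7 of 7 above 0, from 0.041 to 0.29). RAB27A ran from -0.13 to 0.15 over 6 probe sets, 2 of them above 0. The second SYTL2 probe set had signals of 148, 160 and 144 in OCM1 CANT1 cells and 140, 33.4 and 42.3 in OCM1 wild type cells, so that on replicate 1 its difference was 0.064 while that of the brighter one was -6.17. The 2 SYTL2 probe sets also disagreed on the line difference in CANT1 cells, at 1.20 and -1.70 on replicates 2 and 3. In MUM2B all 7 MLPH probe sets were above 0 on replicates 2 and 3, from 0.025 to 1.07, and below 0 on replicate 1, from -1.11 to -0.25. The 3 RAB38 probe sets were above 0 in MUM2B in both sets, at 0.226 to 0.232 and 0.261 to 0.353.

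**Figure D3:**
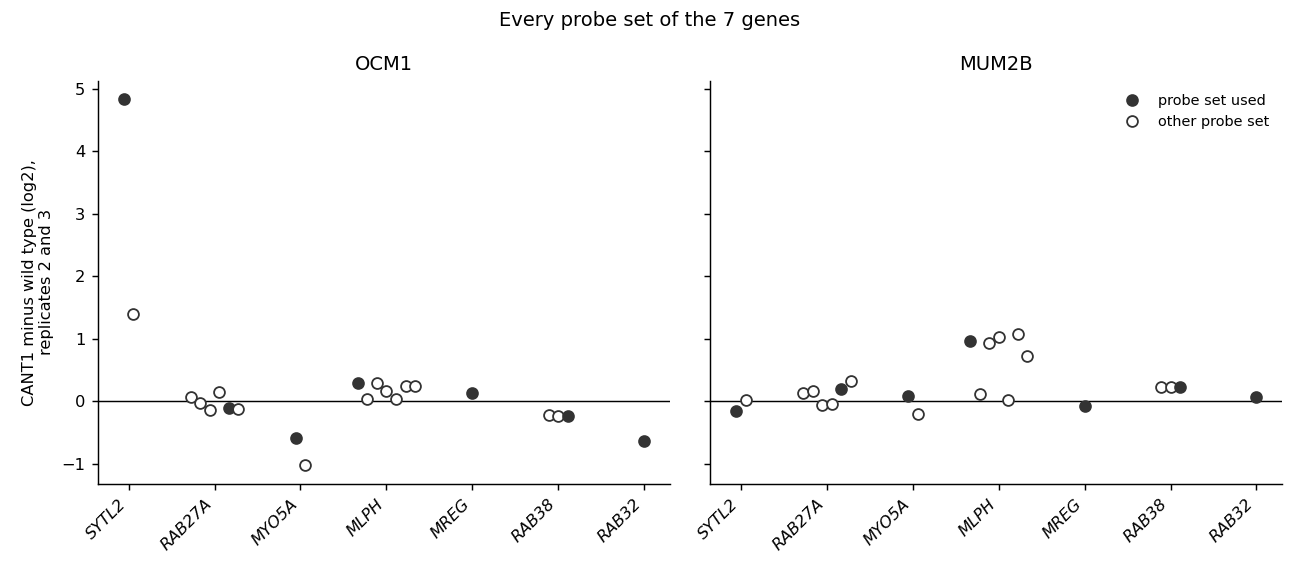
CANT1 minus wild type difference in log2 level on replicates 2 and 3 for all 22 probe sets of the 7 genes in OCM1 (left) and MUM2B (right), with the probe set used for the gene filled and the others open. The 2 SYTL2 probe sets in OCM1 lie at 4.83 and 1.40, and the 7 MLPH probe sets in MUM2B lie between 0.025 and 1.07.

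In OCM1 against MUM2B, RAB27A, MYO5A, MREG and RAB38 were higher in CANT1 cells on every pair of arrays. The share of all genes that did so was not computed. The CANT1 lines differed widely, with 5826 of 12711 genes at an unadjusted limma p under 0.05 and 58.4% of all differences above 0. The differences over all arrays in CANT1 cells were 2.69 ± 0.59 for RAB27A, 2.55 ± 0.57 for MYO5A, 2.56 ± 0.36 for MREG and 2.33 ± 0.55 for RAB38, with replicate 1 at 3.80, 2.91, 2.66 and 2.42. SYTL2 differed by 1.20 ± 0.11 on replicates 2 and 3 but by -2.51 on replicate 1, RAB32 by -0.42 ± 0.092 and 0.46, and MLPH by -0.24 ± 0.15 and 1.36. In wild type cells RAB27A differed by 1.60 ± 0.59 over all arrays, 2.44 ± 0.095 on replicates 2 and 3, -0.086 on replicate 1 and 2.52 ± 0.33 without OCM1 wild type replicate 1. MYO5A differed by 2.16 ± 0.57, 3.04 ± 0.10, 0.40 and 3.15 ± 0.17, and SYTL2 by -1.34 ± 1.73, -3.79 ± 0.11, 3.57 and -4.18 ± 0.77, in the same order. The second SYTL2 probe set differed by -3.08 on replicates 2 and 3 and by -2.74 on replicate 1, so the reversal was seen with the brighter probe set only. RAB27A, MYO5A and SYTL2 gave the set its name and are described without a test.

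The remaining 4 genes were tested between the wild type lines, and 2 of them passed over all arrays. RAB38 was higher in OCM1 by 1.83 ± 0.55 (limma adjusted p = 0.0290) and MREG by 1.76 ± 0.36 (limma adjusted p = 0.0046), where 19.1% of all genes were called higher and 13.9% lower. RAB32 (-0.11 ± 0.26, limma adjusted p = 0.803) and MLPH (-0.43 ± 0.48, limma adjusted p = 0.557) did not pass, nor did they without OCM1 wild type replicate 1 (0.26 ± 0.19 and 0.15 ± 0.42, limma adjusted p = 0.309 and 0.811). On replicates 2 and 3, all 4 were called higher in OCM1, where 35.1% of all genes were called higher and 29.5% lower. The values were 2.74 ± 0.087 for RAB38, 2.31 ± 0.11 for MREG, 0.27 ± 0.092 for RAB32 and 0.44 ± 0.15 for MLPH (limma adjusted p = 1.69e-10, 5.02e-09, 0.0213 and 0.0222). The calls of RAB32 and MLPH were each lost in 4 of 20 alternatives. Among these were leaving out OCM1 wild type replicate 2 or 3 or MUM2B wild type replicate 3 for RAB32 (limma adjusted p = 0.0595, 0.0847 and 0.112), and OCM1 wild type replicate 3 or MUM2B wild type replicate 2 for MLPH (0.181 and 0.180). On replicate 1 the differences were -0.0069 for RAB38, 0.66 for MREG, -0.87 for RAB32 and -2.16 for MLPH. Without OCM1 wild type replicate 1 the difference of RAB38 was 2.79 ± 0.10 and that of MREG 2.36 ± 0.13. Leaving out OCM1 wild type replicate 2 or 3, or MUM2B wild type replicate 2 or 3, ended the RAB38 call over all arrays, with limma adjusted p = 0.108, 0.110, 0.0911 and 0.0930.

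**Figure D4:**
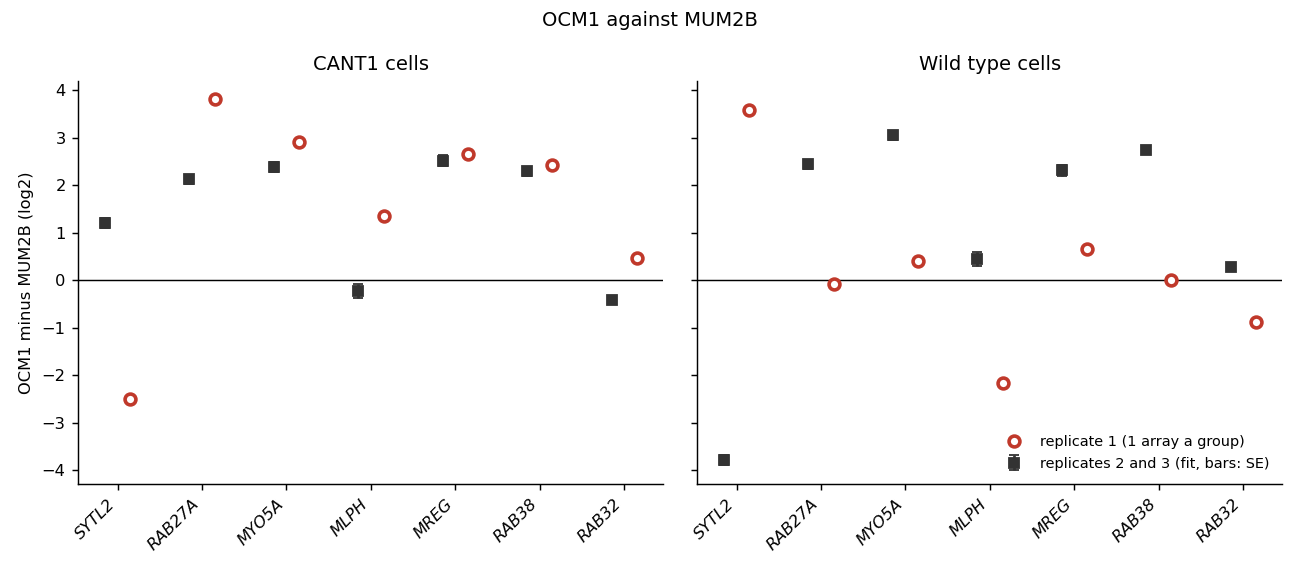
OCM1 minus MUM2B difference in log2 level of each gene in CANT1 cells (left) and wild type cells (right), as squares for the fit on replicates 2 and 3 (bars, standard error) and open circles for replicate 1. In CANT1 cells RAB27A, MYO5A, MREG and RAB38 lie above 2 in both sets, and in wild type cells RAB27A and RAB38 lie at -0.086 and -0.0069 on replicate 1.

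Genes around the pathway were examined in 3 lists, and over all arrays limma called 0 of their members in either CANT1 comparison. Of all genes, 0.0944% were called higher and 0.00787% lower in OCM1, and 0% in MUM2B. At an unadjusted limma p under 0.05 in OCM1 were 2 of 23 genes of organelle building and 2 of 15 motor and actin partners. All were higher, and in MUM2B there were 0. Over all 12711 genes tested, 1173 were under 0.05 in OCM1 and 219 in MUM2B. Of 12 relatives of RAB27A, its effectors and its myosins, 7 passed the filter, and 0 in OCM1 were at an unadjusted p under 0.05. SYTL4, a RAB27 effector of secretory granules, rose in MUM2B on replicates 2 and 3 by 0.53 ± 0.13 (limma adjusted p = 0.0118) against -0.25 on replicate 1, and it was the 1 call among 6 tested, where 14.4% of all genes were called higher. The list had 0 calls without MUM2B wild type replicate 2 and 2 without MUM2B CANT1 replicate 2. Between the wild type lines 3 of 7 were called lower in OCM1 over all arrays and 0 higher, where 13.9% of all genes were called lower and 19.1% higher. With replicates 2 and 3 alone 4 of 6 were called lower and 1 higher, where 29.5% of all genes were called lower and 35.1% higher. Those lower calls include UNC13D and MYO5C, the latter named after its values were seen. Mean levels in OCM1 CANT1, OCM1 wild type, MUM2B CANT1 and MUM2B wild type cells were 7.02, 7.09, 8.15 and 8.14 for UNC13D. For MYO5C they were 6.91, 7.44, 8.04 and 7.72. Their entry into the test may rest on MUM2B, where both were higher, so nothing is read from these calls. The 3 calls over all arrays became 1 without OCM1 wild type replicate 2 or MUM2B wild type replicate 2, and 4 without OCM1 wild type replicate 1, MYO5C among them. The calls over all arrays included SYTL3 (-0.61 ± 0.16, limma adjusted p = 0.0186), with SYTL1 (-0.44 ± 0.15, limma adjusted p = 0.0490) named after its values were seen. The remaining call was UNC13D, an effector of RAB27A in granule release (-1.04 ± 0.17). Its signal was near the filter in OCM1 and higher in MUM2B, so it is given without a test. Without OCM1 wild type replicate 1 the differences of UNC13D, SYTL3 and SYTL1 were -1.14, -0.60 and -0.61. The median of the list was -0.29 between the wild type lines, against 0.056 over all genes.

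Of 25 genes for the complexes that build melanosomes and related organelles, 23 were tested. In OCM1 on replicates 2 and 3, 5 were called higher and 4 lower, where 13.7% and 9.6% of all genes were, with a median of 0.094 against 0.038 over all genes. The 9 calls became 4 without OCM1 CANT1 replicate 2 and 6 without OCM1 wild type replicate 2 or 3. SNAPIN, a subunit of the BLOC-1 complex, rose by 0.56 ± 0.094 and AP3B1, a subunit of the AP-3 adaptor, fell by 0.61 ± 0.095 (limma adjusted p = 0.00178 and 0.00115), with replicate 1 at -0.56 and 0.78. VPS33A, a subunit of vesicle tethering complexes, fell by 0.52 ± 0.10 (limma adjusted p = 0.0042) against 0.28 on replicate 1. The other calls, named after their values were seen, were BLOC1S4, VAMP7, HPS5 and BLOC1S2 higher and HPS3 and ANKRD27 lower. In MUM2B LYST, a regulator of lysosome-related organelle size, rose by 1.06 ± 0.17 (limma adjusted p = 0.00161) against -1.40 on replicate 1. LYST was dim in MUM2B, with mean levels of 7.79 in CANT1 and 7.56 in wild type cells, against 10.78 and 10.73 in OCM1. Its lowest signal over all arrays was 79.5, below the filter. BLOC1S2, a BLOC-1 subunit named after its values were seen, fell by 0.48 ± 0.095 (limma adjusted p = 0.00469) against 0.28. These were the 2 calls, 1 in each direction, where 14.4% and 10.7% of all genes were called higher and lower, and 1 call was left without MUM2B CANT1 replicate 3, against 3 without MUM2B CANT1 replicate 2 or MUM2B wild type replicate 3. Between the wild type lines over all arrays 7 were called higher in OCM1 and 1 lower, where 19.1% and 13.9% of all genes were, with a median of 0.27 against 0.056 over all genes. The 8 calls became 15 without OCM1 wild type replicate 1, and 5 without OCM1 wild type replicate 2 or 3 or without MUM2B wild type replicate 3. LYST differed by 3.18 ± 0.57 (limma adjusted p = 0.00246), with 4.35 on replicates 2 and 3, 0.84 on replicate 1 and 3.83 without OCM1 wild type replicate 1, and VPS33A by 0.93 ± 0.17 (limma adjusted p = 0.0027). HPS1 and HPS4, which together form the exchange factor that activates RAB32 and RAB38 and which are named after their values were seen, were higher by 1.02 ± 0.29 and 1.38 ± 0.30 (limma adjusted p = 0.0221 and 0.00706). On replicate 1 they differed by 0.60 and 0.47, and without OCM1 wild type replicate 1 by 1.42 and 1.87.

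Of 15 motor and actin partners, 14 were tested on replicates 2 and 3. In OCM1, SPIRE2, an actin nucleator, rose by 0.42 ± 0.11 and RAB11B, a recycling endosome GTPase, by 0.40 ± 0.13 (limma adjusted p = 0.0156 and 0.0405), with replicate 1 at -0.39 and 1.02, and 0 were called lower. These 2 of 14 stood beside 13.7% of all genes called higher, and 0 calls were left without OCM1 CANT1 replicate 2 or OCM1 wild type replicate 2 or 3, against 3 without MUM2B CANT1 replicate 2 or 3. In MUM2B, DYNLL1, a dynein light chain, fell by 0.42 ± 0.10 and RAB8A, a GTPase of exocytic traffic, fell by 0.33 ± 0.092 (limma adjusted p = 0.0139 and 0.0248), while both were above 0 on replicate 1 (0.62 and 0.39). RAB11A, named after its values were seen, rose by 0.31 ± 0.087 (limma adjusted p = 0.0235) against -0.40. These calls, 1 higher and 2 lower of 14 where 14.4% and 10.7% of all genes were called, became 0 without MUM2B CANT1 replicate 3 or MUM2B wild type replicate 2 and 1 without MUM2B wild type replicate 3. Between the wild type lines over all arrays, KIF5B, a kinesin heavy chain named after its values were seen, was lower in OCM1 (-0.57 ± 0.10, limma adjusted p = 0.00228), with -0.59 without OCM1 wild type replicate 1. RAB17, a GTPase also named after its values were seen, passed the filter through OCM1, where it was bright, and is given without a test. Its mean level was 10.53 in OCM1 CANT1 and 9.53 in OCM1 wild type cells, and 6.40 in MUM2B CANT1 and 6.58 in MUM2B wild type cells.

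The genes whose pattern over the 12 arrays was most like that of each titled gene, after the mean of each labelled set was removed, are a description, since the arrays share their line and their set and fall into 2 clusters by line. Among 12711 genes, USP47 (r = 0.965), NEO1 (0.962), SETD1B (0.948), ZNF75A (0.944) and TBC1D2B (0.943) were nearest to SYTL2. MAGEA12, TRIM51, TBC1D16, TRPM1 and CPN1 were nearest to RAB27A, at r = 0.990 to 0.991. PER3, RUNX3, ZNF556, LDLRAD3 and PCDHB7 were nearest to MYO5A, at r = 0.994 to 0.997. Without OCM1 wild type replicate 1 the 5 genes of SYTL2 had r = 0.928 to 0.956.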

How the data were processed

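Total RNA of 2 human uveal melanoma cell lines was hybridised to 12 PrimeView arrays, per the labels. The authors deposited 1 value per probe set and array, read here as log2 intensities from their range and shape; the submitters' processing notes name MAS5, with no version, log base or normalization given in the sources used here. Scanner files were not analysed here. Of 49395 probe sets, 102 controls were left out and 44988 named 1 gene. The deposited log2 values were raised to powers of 2, multiplied by 1 factor per array to bring the 2% trimmed mean to 500, and log2 was taken of the product plus 32. Each gene took its brightest single-gene probe set. Genes that reached a signal of 100 on 3 or more arrays entered a linear model fitted by limma (version 3.58.1, R version 4.3.3, lmFit then eBayes). It held 4 group terms and a labelled set term, with 7 residual degrees of freedom for 12711 genes. Replicates 2 and 3 alone left 4 for 12101 genes. Adjustment was by Benjamini-Hochberg at 0.05. The fit over all 12 arrays was tested on simulated data with independent noise, for the MUM2B CANT1 comparison only. The fit on replicates 2 and 3 was not simulated. Precision is limited by 3 arrays per group.

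The members and lists were chosen with earlier results of these data known. No p is given for the members between CANT1 and wild type OCM1 cells, nor for SYTL2, RAB27A and MYO5A between lines. The text names the 7 members, up to 4 genes of each list with the largest CANT1 differences on replicates 2 and 3, and the 5 genes most like each of 3 members; others are stated as named after their values were seen. Alternatives covered quantile normalization, unscaled deposited values, offsets of 16 and 64, no filter and a filter at 200, no set term, a replicate block, the arrays of the contrast only, an intensity trend, array weights, the mean of all probe sets, no _x_at or _s_at probe sets, and each array left out.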

Additional observations from a re-analysis of the deposited data

How the results depend on the processing

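The small number of arrays, and signals near the floor for SYTL2 in OCM1 wild type cells, limit what can be seen. Of 502 alternative values of members with a test, 461 kept their direction and side of the threshold, 13 became weaker, 4 stronger and 24 reversed. Of 776 values of members without a test, 712 stayed within the spread, 59 moved and 5 reversed, and of 552 counts, 473 stayed within 1.5 times. The cause of the changes was not tested. On replicates 2 and 3 alone, the OCM1 CANT1 differences became 4.83 for SYTL2, -0.11 for RAB27A, -0.23 for RAB38 and -0.59 for MYO5A. With array weights they were 4.63, 0.013, -0.19 and -0.52. Leaving out 1 array gave -0.045 to 4.02 for SYTL2, 0.21 to 1.51 for RAB27A, -0.19 to 1.17 for RAB38 and -0.45 to 0.96 for MYO5A.

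On replicates 2 and 3 the SYTL2 difference was 5.66 with quantile normalization, 5.60 on the deposited log2 values, 5.18 with an offset of 16, 4.33 with an offset of 64, 3.12 as the mean of its probe sets (-0.25 between the CANT1 lines) and 4.70 to 4.97 with 1 array left out. RAB27A was -0.031 and MYO5A -0.81 as the mean of all probe sets, and RAB27A ran from -0.20 to -0.030 with 1 array left out.

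In MUM2B over all arrays, MLPH was 0.64 with array weights (limma adjusted p = 0.0369) and 0.96 on replicates 2 and 3, and RAB32 was 0.024 and 0.062. Leaving out 1 array gave -0.042 to 0.84 for MLPH, -0.55 to 0.26 for SYTL2, -0.048 to 0.24 for RAB27A, -0.051 to 0.53 for RAB38, -0.19 to 0.035 for RAB32, -0.14 to 0.33 for MYO5A and -0.23 to 0.11 for MREG. On replicates 2 and 3 it gave -0.0055 to 0.16 for MYO5A and -0.18 to 0.027 for MREG, and MYO5A was -0.062 as the mean of its probe sets.

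Between the wild type lines, RAB38 had limma adjusted p = 0.080 (1.83) with only the arrays of the contrast, and 1.43 to 2.79 with 1 array left out. RAB32 was 0.29 with array weights, 0.27 on replicates 2 and 3, and -0.26 to 0.26 with 1 array left out, and MLPH 0.32, 0.44 and -0.74 to 0.15.

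The number of genes called in OCM1 over all arrays was 23 without a filter, 3704 with array weights, 8 without _x_at or _s_at probe sets, 7 with the replicate block, 5 without the set term, 1 with only the OCM1 arrays, 2815 on replicates 2 and 3 alone and 5 to 139 with 1 array left out. In MUM2B it was 2389 with array weights, 3028 on replicates 2 and 3 and 0 to 9 with 1 array left out. Between the wild type lines it was 8793 and 7817. On replicates 2 and 3, leaving out 1 array gave 1328 to 2935 in OCM1 and 1010 to 3057 in MUM2B.

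The correlations of same-numbered arrays in their deviations from group means on replicates 2 and 3 ran from -0.14 to 0.22, and over all 12 arrays they ran from 0.029 to 0.62, all above 0. They did not all exceed 0.1, so the numbers were not read as pairs. With the replicate block MLPH in MUM2B stayed at 0.27 over all arrays and 0.96 on replicates 2 and 3 (limma adjusted p = 0.000413), and 7 genes were called in OCM1.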
